A study of Mus musculus with 20 samples.

Results

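The 38 genes described here encode proteins that copy DNA in S phase or carry a cell through G2, mitosis and cytokinesis, and they were followed in the hippocampus and cortex of mice at postnatal day 7 (P7). They were chosen by name, and all 38 were found among the 47729 genes of the count files. The rule uses no measured value, but the genes were chosen with earlier results of these data known. The data are stranded mRNA libraries of both tissues from 5 WT and 5 Ube3aOE mice, 20 libraries from 10 mice in 4 groups of 5, with mice 1 to 5 WT and mice 6 to 10 Ube3aOE. The labels give the strain C57Bl/6J for both genotypes. Ube3aOE mice carry additional copies of the ubiquitin ligase gene *Ube3a*, 2 in the mice that the study names for its RNA-Seq, on a bacterial artificial chromosome (BAC) with its own flanking sequence, so that no foreign promoter restricts expression to one cell type. The study made the transgene with loxP sites, and no Cre is given for these mice. The labels do not name the founder line, and both tissues hold all their cell types, neurons, glia and vessels together.

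A dividing cell first duplicates its DNA. Licensed origins are opened by the MCM helicase, nucleotides are supplied by ribonucleotide reductase and thymidylate synthase, and the clamp PCNA holds polymerases on the strand. Cyclin A and cyclin B with CDK1 then drive entry into mitosis, the spindle checkpoint holds anaphase until chromosomes are attached, and the centralspindlin complex with its partners places the cleavage furrow. Most neurons of cortex and hippocampus are born before birth and no longer divide. The dentate gyrus of the hippocampus is the exception, where granule neurons are still produced in large numbers in the first postnatal weeks, and in both tissues precursors of astrocytes and oligodendrocytes, microglia and vessel cells still divide at this age.

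Genes of G2 and mitosis are known to be switched off outside these phases through a promoter element called CHR, which is bound by the DREAM and MuvB complexes and often lies a short way downstream of CCAAT boxes, the binding element of NF-Y, while genes of S phase are regulated mostly through E2F elements. The promoters of both kinds are therefore shown before the values. RefSeq promoters (build GRCm38.p6, 250 bases before to 50 after a transcript start) were found for 32 of the 38 genes, 34 promoters in all. *Ect2* and *Prc1* had more than 1 start each. Their promoters overlap, so the same matches were counted more than once in the shares below. *Aurkb*, *Tpx2*, *Ccne2*, *Kif20a*, *Ccna2* and *Mcm4* had no entry. Both strands were searched for CHR (TTTGAA or TTCGAA), for CCAAT and for E2F (TTCCCGC or TTGGCGC or TTCGCGC or TTGCCGC). Matches on opposite strands can share bases, and so can CCAAT and TTGGCGC. The windows below run from 130 bases before to 20 after the start, 5′ to 3′ on the strand of the gene, and capitals mark the matches. They show 5 mitosis genes that hold CHR and 3 S phase genes that hold none, a choice made after the matches were seen. Their places are *Top2a* chr11:99024170-99024319 on the minus strand, *Ccnb2* chr9:70421535-70421684 on the minus strand, *Cenpf* chr1:189688067-189688216 on the minus strand, *Mki67* chr7:135716360-135716509 on the minus strand, *Cdk1* chr10:69352893-69353042 on the minus strand, *Mcm6* chr1:128359686-128359835 on the minus strand, *Pcna* chr2:132253161-132253310 on the minus strand and *Rrm2* chr12:24708124-24708273 on the plus strand.
Top2a: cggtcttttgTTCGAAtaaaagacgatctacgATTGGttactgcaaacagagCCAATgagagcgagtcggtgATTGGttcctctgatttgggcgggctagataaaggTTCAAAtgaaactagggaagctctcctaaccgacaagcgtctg
Ccnb2: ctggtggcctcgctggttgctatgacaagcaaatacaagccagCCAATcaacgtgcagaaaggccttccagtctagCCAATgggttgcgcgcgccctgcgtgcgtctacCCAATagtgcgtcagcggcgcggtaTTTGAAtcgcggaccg
Cenpf: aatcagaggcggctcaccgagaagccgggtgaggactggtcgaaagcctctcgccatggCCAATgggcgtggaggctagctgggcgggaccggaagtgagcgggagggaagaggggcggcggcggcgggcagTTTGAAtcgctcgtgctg
Mki67: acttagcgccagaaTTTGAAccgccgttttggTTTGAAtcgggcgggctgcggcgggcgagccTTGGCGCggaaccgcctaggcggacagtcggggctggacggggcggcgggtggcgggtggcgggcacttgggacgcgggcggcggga
Cdk1: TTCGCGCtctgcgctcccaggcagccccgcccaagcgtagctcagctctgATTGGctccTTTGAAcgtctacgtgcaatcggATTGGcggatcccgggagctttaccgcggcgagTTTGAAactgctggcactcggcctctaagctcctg
Mcm6: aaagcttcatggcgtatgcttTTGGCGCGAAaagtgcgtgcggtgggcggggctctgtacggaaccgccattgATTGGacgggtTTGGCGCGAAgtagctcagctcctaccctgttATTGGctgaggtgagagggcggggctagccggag
Pcna: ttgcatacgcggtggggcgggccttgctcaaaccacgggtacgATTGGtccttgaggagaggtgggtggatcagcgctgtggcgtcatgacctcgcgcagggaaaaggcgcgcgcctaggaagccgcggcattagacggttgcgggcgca
Rrm2: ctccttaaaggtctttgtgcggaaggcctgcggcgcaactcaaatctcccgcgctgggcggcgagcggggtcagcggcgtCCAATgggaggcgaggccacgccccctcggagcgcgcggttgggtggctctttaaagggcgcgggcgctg

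A CHR match was found in 23 of the 27 promoters of G2 and mitosis genes (85.2%) and in 1 of the 7 promoters of replication and S phase genes (14.3%), that of *Mcm2*. Of all 32851 promoters of the same length, 19.2% held one. CCAAT was found in 28 of the 34 promoters (82.4%, against 37.4% of all), in both kinds of gene. CHR and CCAAT stood together in 21 promoters (61.8%, against 7.52% of all). An E2F match was found in 4 of the 7 S phase promoters (57.1%) and in 7 of the 27 others (25.9%), against 9.57% of all promoters. In the windows above, the *Top2a* promoter carried 3 CCAAT matches between its CHR matches, and the *Mcm6* promoter carried E2F matches that overlap on opposite strands. The *Pcna* window held CCAAT alone. These are matches of letters and not bound sites, and genes that share a promoter element were not compared in their expression here.

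**Figure D1:**
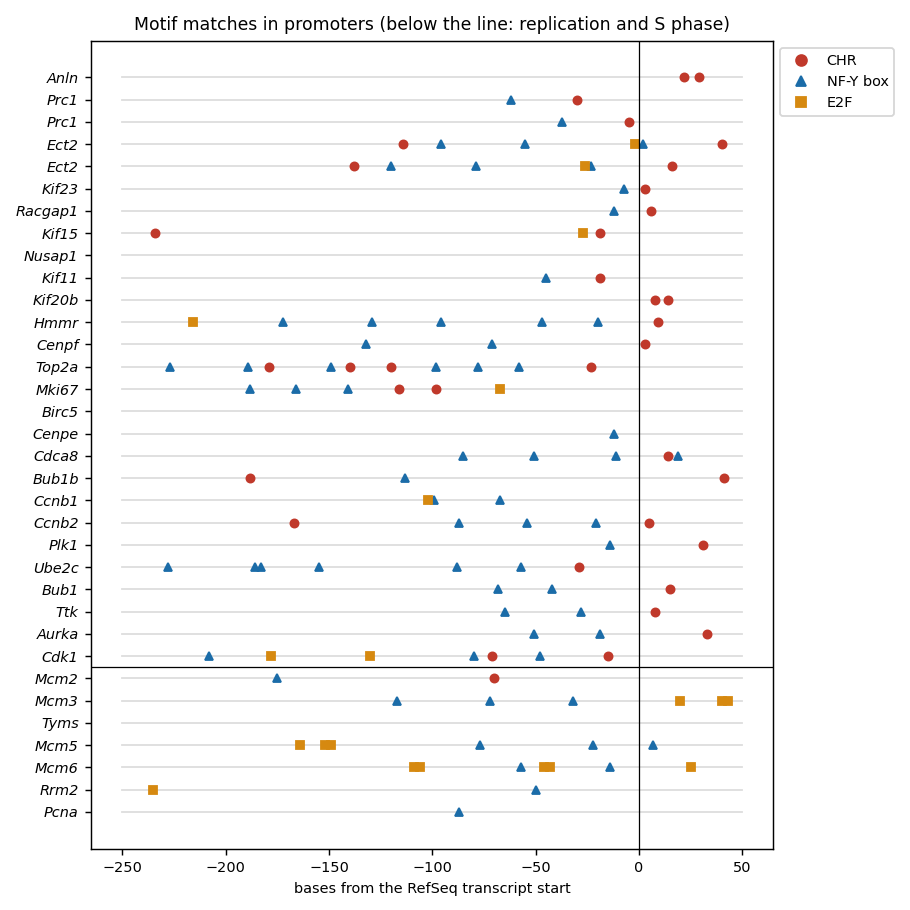
Matches to the CHR, NF-Y (CCAAT) and E2F motifs in the 34 RefSeq promoters of 32 genes, plotted by distance in bases from the transcript start (0). Red circles (CHR) are found in 23 of 27 promoters of G2 and mitosis genes above the line, and in 1 of 7 promoters of S phase genes below it.

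The count files hold 14191093 to 16752326 reads on genes per library, and 18.8% to 30.3% of the reads of a library were not counted on a gene. The cortex of WT mouse 2 had both the 14191093 reads and the 30.3%, and the other libraries had 18.8% to 24.0% not counted. The 38 genes had 24 to 717 reads each in a library, so that counting error is large for the lowest of them, and the spread between mice of 1 group was 13.7% for a typical gene (biological coefficient of variation over the 20 libraries). No 2 libraries were identical. *Ube3a* itself had 728 to 1248 reads in WT and 2009 to 3249 in Ube3aOE libraries, in the direction of the labels. Markers of the labelled tissues differed in the direction of the labels, since *Prox1* of dentate granule cells was higher in hippocampus (3.21 on the log2 scale) and the markers of neocortical neurons summed to 306 to 453 CPM in cortex and 139.7 to 249 CPM in hippocampus. In 2 WT mice, 3 and 5, the sex-linked genes *Xist*, *Ddx3y* and *Eif2s3y* went against the labelled sex in both tissues, so sex was not used, and the counts of the 38 genes called between regions over both genotypes, between genotypes and for the interaction were repeated without these mice. Levels are given in CPM, the reads of a gene per 1000000 reads on genes after scaling by edgeR's TMM factors, with the 5 values of a group in the order of the mice. Differences between groups are log2 fold changes from edgeR's quasi-likelihood F test with Benjamini-Hochberg adjustment over all genes tested, called at an adjusted *P* value under 0.05. Since the tissue was not sorted, fewer dividing cells and less of a transcript per cell cannot be told apart.

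Expression of the cell division genes was higher in hippocampus than in cortex. Of the 38 genes, 34 (89.5%) rose in hippocampus at the threshold and 0 fell, where 25.3% of all 15661 genes tested were higher and 25.6% lower. The median log2 fold change of the 38 was 0.66, against -0.0053 for all genes, and each of the 38 fitted values lay above 0. In 28 genes the hippocampus was above the cortex of the same animal in all 10 mice, in 6 genes it was so in 9 mice, in 3 genes in 7 mice and in *Ccne2* in 6. The share of all genes that were above in as many mice was not counted. For 12 genes (*Tpx2*, *Ube2c*, *Kif23*, *Ccnb2*, *Ect2*, *Ccna2*, *Kif11*, *Nusap1*, *Kif15*, *Prc1*, *Top2a* and *Bub1b*) each of the 10 hippocampus libraries was above each of the 10 cortex libraries, which held for 5.52% of all genes. The opposite held for 0 of the 38 and for 3.74% of all genes. The difference was seen within each genotype: 31 genes were higher in hippocampus in WT mice (median 0.68) and 32 in Ube3aOE mice (median 0.60). Of all genes, 18.8% were higher and 18.3% lower in WT hippocampus, and 17.1% were higher and 16.1% lower in Ube3aOE hippocampus. Of the 38, 0 were called lower in either genotype. With the mouse as a replicate block the counts were 32 in WT and 34 in Ube3aOE mice, since *Rrm2* passed in WT mice (adjusted *P* = 0.0393 with the block and 0.129 without it, by edgeR), and *Rrm2* (0.0348 and 0.130) and *Aurka* (0.0391 and 0.0921) passed in Ube3aOE mice. Without WT mice 3 and 5, 32 of the 38 were higher over both genotypes.

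**Figure D2:**
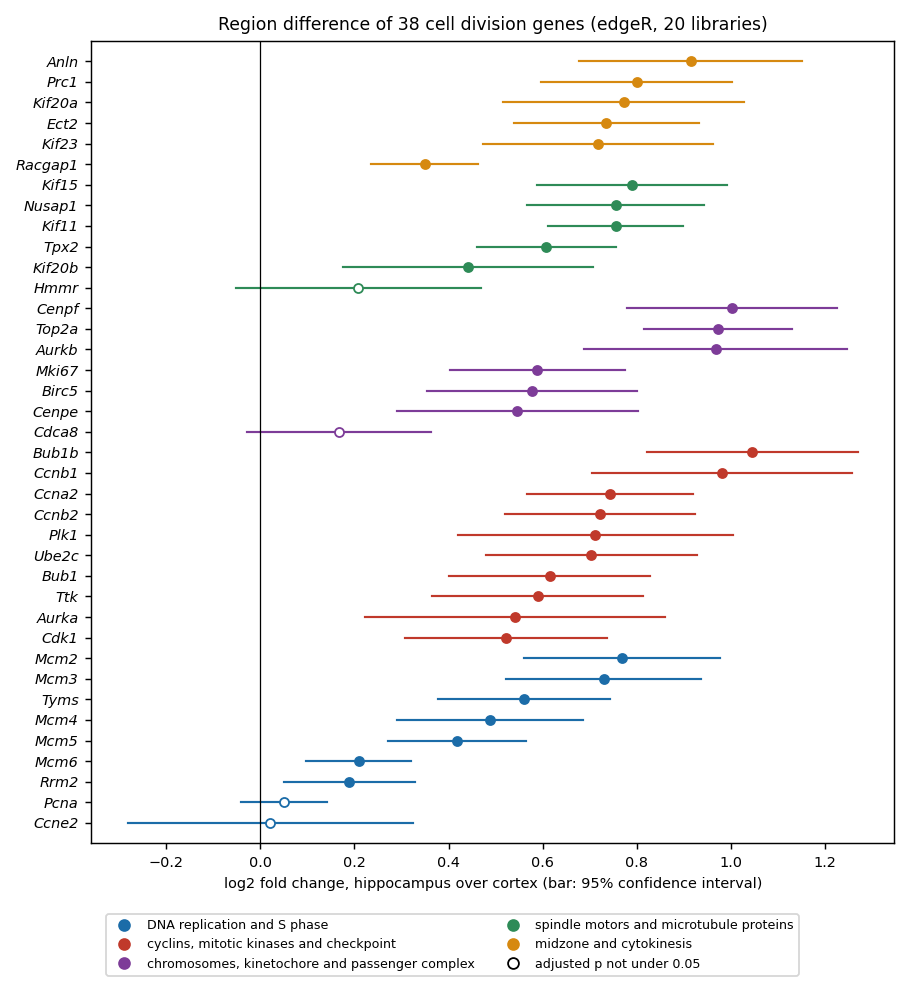
Log2 fold change of each of the 38 genes in hippocampus over cortex (point) with its 95% confidence interval (bar), from edgeR over 20 libraries, coloured by role. Points lie from 0.021 for *Ccne2* to 1.05 for *Bub1b*, and the 4 open points did not pass an adjusted *P* value of 0.05.

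The genes of DNA replication and S phase were the group with the smallest median difference, 0.42, with 7 of 9 genes higher in hippocampus and 0 lower. Their summed level was 135 to 153 CPM in cortex and 146 to 197 CPM in hippocampus. *Mcm2* (ENSMUSG00000002870, chromosome 6, 88883474 to 88898780 on GRCm38), a subunit of the replicative helicase, differed most. *Mcm2* in WT mice was at 12.1, 8.90, 10.5, 9.04 and 10.1 CPM in cortex and at 19.7, 12.1, 20.1, 20.2 and 20.7 CPM in hippocampus. *Mcm2* in Ube3aOE mice was at 12.4, 12.8, 11.9, 8.91 and 10.5 CPM in cortex and at 20.1, 21.3, 17.6, 15.6 and 15.3 CPM in hippocampus. The groups overlapped only through the hippocampus of WT mouse 2, at 12.1 CPM, which lay under the highest cortex library. Its log2 fold change was 0.77 (SE 0.10, adjusted *P* = 1.94e-06). The other helicase subunits among the 38 genes differed by 0.73 (*Mcm3*), 0.49 (*Mcm4*), 0.42 (*Mcm5*) and 0.21 (*Mcm6*), and *Mcm7*, a subunit that is not among them, by 0.49. Subunits of 1 complex thus ranged from 0.21 to 0.77, with intervals of 0.098 to 0.32 for *Mcm6* and 0.56 to 0.98 for *Mcm2*. *Tyms*, the thymidylate synthase that makes the thymine nucleotide of DNA, rose by 0.56. *Rrm2*, the small subunit of ribonucleotide reductase, rose by 0.19 (SE 0.067, adjusted *P* = 0.0231), the call nearest to the threshold, and the call was lost without WT mouse 4, without Ube3aOE mouse 6 and without WT mice 3 and 5 (log2 fold changes of 0.17, 0.18 and 0.18, with adjusted *P* values of 0.0620, 0.0578 and 0.0671).

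*Pcna* and *Ccne2* were the S phase genes that did not pass. *Pcna* (ENSMUSG00000027342, chromosome 2, 132249162 to 132253314), the sliding clamp of replication that also serves DNA repair, was the most abundant of the 38 genes per length. *Pcna* in WT mice was at 36.6, 42.0, 41.4, 41.7 and 40.1 CPM in cortex and at 39.3, 36.7, 44.2, 39.3 and 40.4 CPM in hippocampus. *Pcna* in Ube3aOE mice was at 34.8, 37.0, 36.0, 34.0 and 35.8 CPM in cortex and at 38.1, 41.9, 40.7, 37.6 and 34.1 CPM in hippocampus. The regions overlapped almost fully. Its log2 fold change was 0.051 (SE 0.044, adjusted *P* = 0.345), with a 95% interval of -0.04 to 0.14, so that a difference as large as that of *Mcm2* lies outside it. *Ccne2* (ENSMUSG00000028212, chromosome 4, 11191351 to 11204779), a cyclin E that starts S phase with CDK2, had the smallest difference. *Ccne2* in WT mice was at 3.25, 2.84, 3.82, 3.21 and 3.49 CPM in cortex and at 2.17, 2.65, 4.87, 3.39 and 3.06 CPM in hippocampus. *Ccne2* in Ube3aOE mice was at 2.60, 2.78, 2.98, 4.15 and 4.30 CPM in cortex and at 3.10, 2.90, 3.19, 3.67 and 5.03 CPM in hippocampus. Its values spread widely within each group, from 2.17 to 5.03 CPM in hippocampus. This made a log2 fold change of 0.021 (SE 0.15, adjusted *P* = 0.916) with an interval of -0.28 to 0.32, which does not exclude a difference like that of *Rrm2* or *Mcm6*. *Ccne2* overlaps *Ints8* on the other strand, and *Pcna* and *Tyms* have named pseudogenes (*Pcna-ps1*, *Pcna-ps2* and *Tyms-ps*) with which reads could be shared.

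All 10 cyclins, mitotic kinases and checkpoint genes were higher in hippocampus, with a median of 0.71. *Bub1b* (ENSMUSG00000040084, chromosome 2, 118598211 to 118641591) encodes BubR1, which holds back the anaphase-promoting complex until chromosomes are attached. *Bub1b* in WT mice was at 5.55, 6.43, 4.40, 4.42 and 5.79 CPM in cortex and at 11.0, 9.54, 9.31, 14.0 and 13.2 CPM in hippocampus. *Bub1b* in Ube3aOE mice was at 5.72, 5.49, 5.97, 5.07 and 4.75 CPM in cortex and at 12.0, 12.2, 12.1, 7.33 and 9.95 CPM in hippocampus. Each hippocampus library was above each cortex library, with Ube3aOE mouse 9 the lowest of the hippocampus at 7.33 CPM. The fitted difference was 1.05 (SE 0.11, adjusted *P* = 9.75e-08), the largest of the 38. *Ccnb1* (ENSMUSG00000041431, chromosome 13, 100778650 to 100786570) encodes cyclin B1, the partner of CDK1 at mitotic entry. *Ccnb1* in WT mice was at 1.79, 2.77, 3.89, 1.92 and 2.74 CPM in cortex and at 4.57, 4.00, 5.36, 5.46 and 5.89 CPM in hippocampus. *Ccnb1* in Ube3aOE mice was at 2.10, 2.52, 2.80, 2.14 and 2.15 CPM in cortex and at 3.87, 5.61, 5.67, 4.05 and 4.43 CPM in hippocampus. The cortex of WT mouse 3, at 3.89 CPM, reached the lowest hippocampus library. The difference came to 0.98 (SE 0.13, adjusted *P* = 3.23e-06). Named pseudogenes of *Ccnb1* and *Ccnb2* are annotated (*Ccnb1-ps* and *Ccnb2-ps*), and how reads were split between them is uncertain.

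*Cdk1* (ENSMUSG00000019942, chromosome 10, 69335146 to 69352938), the kinase of mitotic entry, had a smaller fold change than its cyclins, a difference between genes that was not tested. *Cdk1* in WT mice was at 8.10, 7.78, 8.62, 8.34 and 9.77 CPM in cortex and at 11.1, 9.48, 15.5, 13.7 and 15.2 CPM in hippocampus. *Cdk1* in Ube3aOE mice was at 8.96, 10.9, 8.41, 8.42 and 7.79 CPM in cortex and at 12.1, 15.9, 11.5, 9.00 and 11.7 CPM in hippocampus. Ube3aOE mouse 9 and WT mouse 2 were the lowest of the hippocampus and lay within the cortex range. On the log2 scale *Cdk1* rose by 0.52 (SE 0.10, adjusted *P* = 0.000246), beside 0.74 for cyclin A2 (*Ccna2*) and 0.72 for cyclin B2 (*Ccnb2*). Among the other kinases, *Plk1*, which acts on centrosomes and kinetochores, rose by 0.71. *Bub1* and *Ttk* of the spindle checkpoint rose by 0.61 and 0.59. *Aurka*, the kinase of spindle poles, rose by 0.54 (SE 0.15, adjusted *P* = 0.00568), and this call was lost without WT mice 3 and 5 (log2 fold change 0.44, adjusted *P* = 0.0588, from 0.000809 to 0.0588 over the alternatives). *Ube2c*, the ubiquitin-conjugating enzyme of the anaphase-promoting complex, rose by 0.70.

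Of the 7 genes of chromosomes, kinetochores and the passenger complex, 6 were higher in hippocampus, with a median of 0.59. *Top2a* (ENSMUSG00000020914, chromosome 11, 98992943 to 99024189), the topoisomerase that untangles sister chromatids, had the smallest adjusted *P* value of the 38. *Top2a* in WT mice was at 13.9, 11.0, 12.9, 10.8 and 12.4 CPM in cortex and at 26.6, 22.6, 23.9, 23.1 and 25.8 CPM in hippocampus. *Top2a* in Ube3aOE mice was at 15.1, 13.2, 14.7, 11.6 and 13.0 CPM in cortex and at 33.1, 25.8, 26.5, 20.8 and 24.1 CPM in hippocampus. *Top2a* contains the small gene *Gm23451* on the same strand. The lowest hippocampus library, at 20.8 CPM, was above the highest cortex library, at 15.1 CPM. The regions differed by 0.97 (SE 0.076, adjusted *P* = 2.77e-09). *Cenpf* (ENSMUSG00000026605, chromosome 1, 189640606 to 189688086), a large protein of the outer kinetochore, was near it. *Cenpf* in WT mice was at 4.21, 3.74, 4.15, 3.85 and 3.86 CPM in cortex and at 8.97, 5.78, 8.75, 8.56 and 8.55 CPM in hippocampus. *Cenpf* in Ube3aOE mice was at 3.94, 4.07, 5.91, 4.88 and 4.56 CPM in cortex and at 11.6, 9.48, 10.0, 6.62 and 8.03 CPM in hippocampus. WT mouse 2 was the lowest of the hippocampus, at 5.78 CPM, just under the highest cortex library. Its log2 fold change was 1.00 (SE 0.11, adjusted *P* = 1.61e-07).

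*Mki67* (ENSMUSG00000031004, chromosome 7, 135689784 to 135716361) encodes Ki-67, the protein that coats mitotic chromosomes and is used as a marker of cycling cells. *Mki67* in WT mice was at 10.1, 8.38, 8.16, 7.25 and 8.47 CPM in cortex and at 12.9, 11.3, 9.18, 11.3 and 12.8 CPM in hippocampus. *Mki67* in Ube3aOE mice was at 8.00, 9.69, 11.0, 8.54 and 8.17 CPM in cortex and at 17.4, 13.4, 18.2, 12.5 and 14.1 CPM in hippocampus. The regions overlapped through the hippocampus of WT mouse 3, at 9.18 CPM, and all 5 Ube3aOE hippocampus libraries were above each cortex library. This made a log2 fold change of 0.59 (SE 0.089, adjusted *P* = 1.31e-05). The chromosomal passenger complex guides chromosome attachment and cytokinesis, and its 3 listed subunits had unequal fold changes. *Aurkb* (ENSMUSG00000020897, chromosome 11, 69045647 to 69051664) is its kinase. *Aurkb* in WT mice was at 3.57, 3.22, 3.82, 2.95 and 3.42 CPM in cortex and at 6.92, 3.14, 8.20, 5.63 and 7.22 CPM in hippocampus. *Aurkb* in Ube3aOE mice was at 2.92, 3.88, 2.57, 2.87 and 2.53 CPM in cortex and at 6.67, 6.16, 5.08, 6.50 and 6.47 CPM in hippocampus. Only the hippocampus of WT mouse 2, at 3.14 CPM, fell into the cortex range. The log2 fold change of *Aurkb* was 0.97 (SE 0.13, adjusted *P* = 4.40e-06). *Birc5*, which encodes survivin, rose by 0.58 (SE 0.11, adjusted *P* = 0.000132). *Cdca8* (ENSMUSG00000028873, chromosome 4, 124918465 to 124939311), which encodes borealin, did not pass the test.

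*Cdca8* in WT mice was at 8.36, 12.1, 10.4, 9.36 and 9.59 CPM in cortex and at 9.08, 9.23, 13.2, 11.7 and 10.5 CPM in hippocampus. *Cdca8* in Ube3aOE mice was at 10.4, 7.88, 8.89, 9.52 and 8.61 CPM in cortex and at 11.2, 13.0, 11.3, 9.00 and 8.27 CPM in hippocampus. The hippocampus and cortex values of *Cdca8* lay in nearly the same range. Its log2 fold change was 0.17 (SE 0.094, adjusted *P* = 0.148) with an interval of -0.029 to 0.36, below that of *Aurkb*, 0.69 to 1.25. Without WT mouse 2 it was 0.24 and passed (adjusted *P* = 0.0404, from 0.0282 to 0.406 over the alternatives). *Cdca8* overlaps the gene *9930104L06Rik* on the other strand. *Cenpe*, the kinetochore motor that moves chromosomes to the metaphase plate, rose by 0.55.

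Among the 6 spindle motors and microtubule proteins, 5 were higher in hippocampus, with a median of 0.68. *Kif15* (ENSMUSG00000036768, chromosome 9, 122951046 to 123018733), a kinesin that helps keep the spindle bipolar, was the lowest of the 38 per length and had the largest difference of this group. *Kif15* in WT mice was at 1.85, 2.17, 2.14, 1.73 and 1.62 CPM in cortex and at 4.22, 3.57, 4.13, 4.43 and 3.64 CPM in hippocampus. *Kif15* in Ube3aOE mice was at 3.37, 2.71, 2.80, 3.42 and 2.66 CPM in cortex and at 4.83, 3.68, 4.96, 3.79 and 4.02 CPM in hippocampus. The lowest hippocampus library, at 3.57 CPM, was just above the highest cortex library, at 3.42 CPM. The fitted difference was 0.79 (SE 0.097, adjusted *P* = 9.63e-07). *Kif11*, the motor that pushes spindle poles apart, rose by 0.75 (SE 0.069, adjusted *P* = 2.01e-08). *Nusap1*, a protein of spindle microtubules, rose by 0.76, *Tpx2*, the activator of Aurora A, by 0.61, and *Kif20b*, a kinesin of late cytokinesis, by 0.44. *Hmmr*, a microtubule protein of spindle poles that also binds hyaluronan, was at 3.43, 4.29 and 5.82 CPM (lowest, median and highest of 10 libraries) in cortex and at 3.80, 5.40 and 6.18 CPM in hippocampus. Its log2 fold change of 0.21 (SE 0.13, adjusted *P* = 0.174) had an interval of -0.052 to 0.47.

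All 6 genes of the spindle midzone and of cytokinesis were higher in hippocampus, and their median of 0.75 was the highest of the 5 groups. *Anln* (ENSMUSG00000036777, chromosome 9, 22332012 to 22389188) encodes anillin, the scaffold of the cleavage furrow, which is also known from myelin, where it binds septins. *Anln* in WT mice was at 4.66, 3.59, 4.21, 5.13 and 4.29 CPM in cortex and at 11.5, 8.18, 12.2, 10.3 and 11.4 CPM in hippocampus. *Anln* in Ube3aOE mice was at 5.15, 5.23, 9.61, 6.65 and 5.57 CPM in cortex and at 10.1, 9.00, 11.3, 7.85 and 8.57 CPM in hippocampus. Only the cortex of Ube3aOE mouse 8, at 9.61 CPM, reached into the hippocampus range. The difference came to 0.91 (SE 0.11, adjusted *P* = 1.16e-06). The markers of myelinating oligodendrocytes did not differ between regions at the threshold (0 of 6 tested), and their summed level was 142 to 289 CPM in cortex and 161 to 325 CPM in hippocampus. *Prc1* (ENSMUSG00000038943, chromosome 7, 80294450 to 80316259) bundles the microtubules of the midzone. *Prc1* in WT mice was at 6.19, 10.2, 8.55, 7.44 and 8.40 CPM in cortex and at 11.4, 11.9, 15.5, 17.3 and 16.8 CPM in hippocampus. *Prc1* in Ube3aOE mice was at 10.1, 10.1, 9.31, 8.48 and 9.37 CPM in cortex and at 15.8, 18.8, 17.8, 12.7 and 15.2 CPM in hippocampus. Each hippocampus library was above each cortex library. On the log2 scale *Prc1* rose by 0.80 (SE 0.098, adjusted *P* = 8.89e-07).

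The other midzone genes were *Kif20a*, a kinesin that brings the passenger complex to the midzone (0.77), *Ect2*, the activator of the furrow GTPase RhoA (0.73), and the centralspindlin partners *Kif23* and *Racgap1*. Centralspindlin is built from both proteins, and the fold changes of its genes, not tested against each other, were 0.72 for *Kif23*, with an interval of 0.47 to 0.96, and 0.35 for *Racgap1*, with an interval of 0.24 to 0.46. Per length, *Racgap1* stood at 4.48 ± 0.357 CPM per kilobase of exon (RPKM, mean ± SD, *n* = 10 libraries) in hippocampus and 3.52 ± 0.333 in cortex, and *Kif23* at 0.657 ± 0.0783 and 0.400 ± 0.0838. Some of these genes overlap another on the opposite strand, namely *Prc1* with *Rccd1*, *Kif20a* with *Cdc23*, *Nusap1* with *Oip5*, *Ube2c* with *Tnnc2*, *Plk1* with *Gm44985* and *Ccna2* with *Exosc9*, and the strand setting of the counting is not given in the sources used here.

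**Figure D3:**
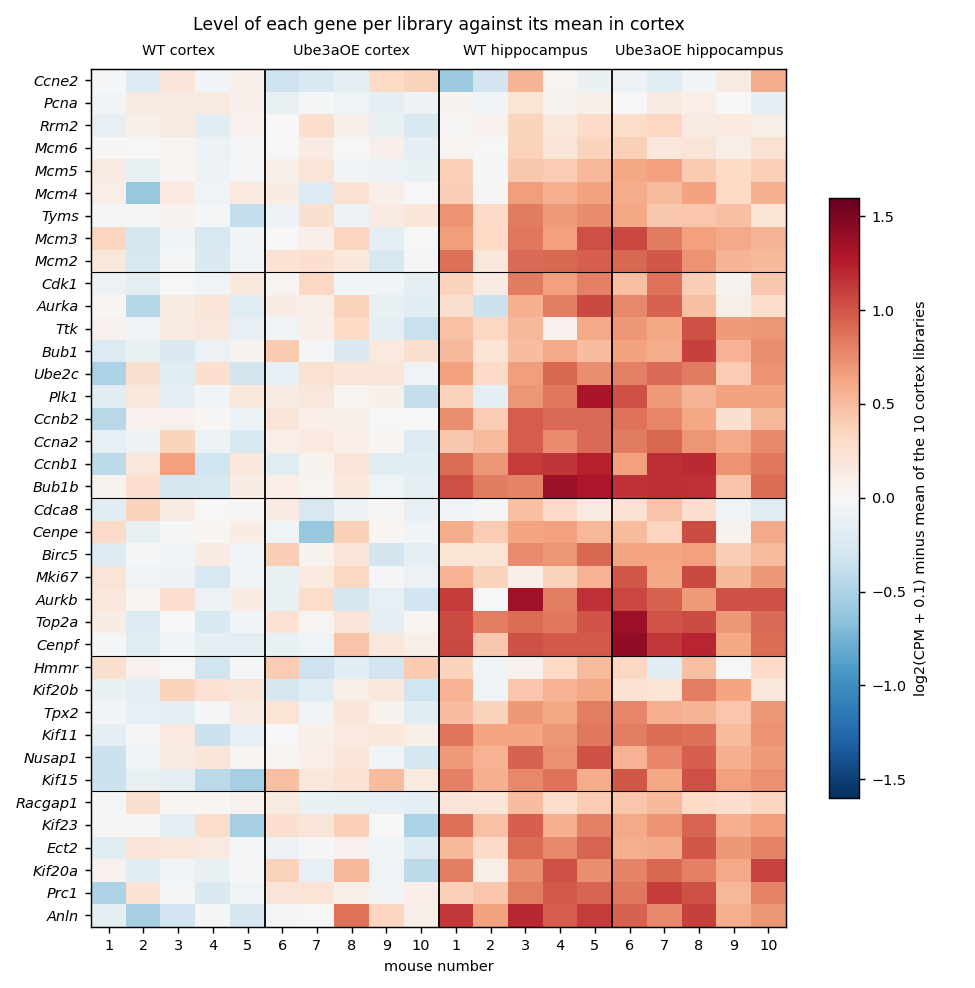
Each of the 38 genes (rows, grouped by role in the order of the text from replication at the top to cytokinesis at the bottom) in each of the 20 libraries (columns, by mouse number), as log2 of CPM with 0.1 added minus the mean of the 10 cortex libraries. Hippocampus columns are red in most rows, palest for WT mouse 2 and Ube3aOE mouse 9, and *Ccne2*, *Pcna*, *Rrm2*, *Mcm6*, *Cdca8* and *Hmmr* stay pale.

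Per length, the order of the genes was led by S phase in both regions. Length here covers all annotated exons of a gene, which can exceed the transcript expressed, so the order across genes is approximate. *Pcna* stood at 16.3 ± 1.18 RPKM in hippocampus and 15.8 ± 1.27 RPKM in cortex (mean ± SD, *n* = 10 libraries each). *Rrm2* followed at 8.72 ± 0.726 and 7.65 ± 0.874, and *Mcm6* at 7.57 ± 0.706 and 6.55 ± 0.358. *Mcm4*, *Mcm5* and *Racgap1* came next in both regions and did not differ from one another beyond their SDs. *Top2a* stood at 2.80 ± 0.372 RPKM in hippocampus and 1.43 ± 0.161 in cortex, and *Mki67* at 1.32 ± 0.272 and 0.872 ± 0.112. *Kif15* was the lowest, at 0.374 ± 0.0444 and 0.222 ± 0.0587. The 3 genes with the highest levels per length thus had log2 fold changes between regions of 0.051, 0.19 and 0.21, all under the median of 0.66.

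The 38 genes together summed to 319 ± 13.4 CPM (SD, *n* = 10) in cortex, from 299 to 341 CPM, and to 456 ± 43.0 CPM in hippocampus, from 371 to 499.9 CPM. The sum was higher in the hippocampus of every mouse. The ratio of hippocampus to cortex within a mouse ran from 1.17 in WT mouse 2 to 1.58 in WT mouse 5, with a median of 1.47. For the 9 S phase genes this ratio was 1.05 to 1.35 (median 1.24), and for the 29 genes of G2 and mitosis 1.27 to 1.78 (median 1.62). The sum over the mitosis genes divided by that over the S phase genes was 1.13 to 1.33 in the cortex libraries and 1.45 to 1.69 in the hippocampus libraries, which did not overlap. *Pcna*, *Mcm6* and *Rrm2* had the highest CPM within the S phase sum.

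**Figure D4:**
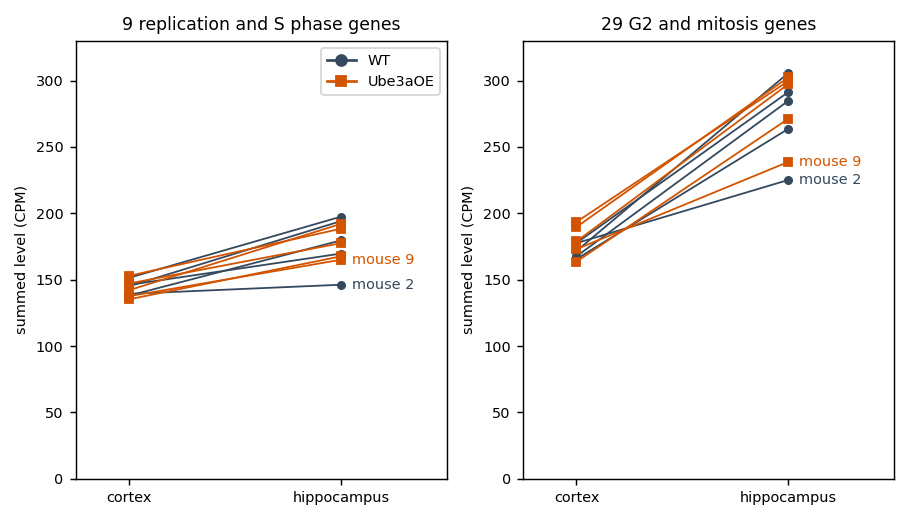
Summed level in CPM of the 9 replication and S phase genes (left) and of the 29 G2 and mitosis genes (right) in cortex and hippocampus, with a line for each of the 10 mice. Lines rise in every mouse, less steeply for S phase (median ratio 1.24) than for G2 and mitosis (median 1.62), and WT mouse 2 has the lowest hippocampus value in both plots.

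WT mouse 2 had the lowest value of the 5 WT hippocampus libraries in 30 of the 38 genes (78.9%), and in 30.9% of all genes. Ube3aOE mouse 9 had the lowest value of its group in 22 of the 38 genes (57.9%), and in 19.4% of all genes. In cortex, Ube3aOE mouse 10 had the lowest value of its group in 18 of the 38 genes (47.4%), and in 20.0% of all genes. Markers of other cells differed in the hippocampus libraries of mice 2 and 9 too. In WT mouse 2 the 5 neocortical neuron markers summed to 249 CPM, against 155 to 192 CPM in the other WT hippocampus libraries, and the 6 markers of the dentate granule lineage to 174 CPM, against 301 to 329 CPM. In Ube3aOE mouse 9 the 7 markers listed for subpallial neuroblasts summed to 284 CPM. They summed to 125 to 170 CPM in the other hippocampus libraries of that genotype. *Gad2* gave most of this sum in mouse 9, with 2433 reads against 960 to 1422 in those libraries. *Dlx1* stayed within their range in reads not scaled for library size, with 895 against 477 to 901. The rest of the list was above their range. *Dlx2* had 303 reads against 151 to 203, *Dlx5* 195 against 61 to 80 and *Dlx6* 302 against 46 to 79. *Sp8* had 90 reads against 39 to 70 and *Sp9* 205 against 102 to 164. The 7 choroid plexus and ependyma markers summed to 372 CPM in mouse 9 and the dentate markers to 228 CPM. Which cells gave these sums, and their part in the levels of the cell division genes, was not tested. Without mice 2 and 9, 35 of the 38 genes were higher in hippocampus, since *Cdca8* also passed (log2 fold change 0.27).

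Other genes of the cell cycle were higher in hippocampus in part, and their counts and those of the marker lists stand beside 25.3% higher and 25.6% lower among all genes tested. Of 36 further replication genes tested, 22 were higher and 3 lower in hippocampus, with a median of 0.37. The largest were *Uhrf1*, which maintains DNA methylation behind the fork (1.10), *Cdc6*, a licensing factor (1.03), and the repressor *E2f8* (0.98). The genes that fell were *E2f1*, an activator of S phase genes (-0.69), *Prim1*, a primase subunit (-0.26), and *Orc6* of the origin recognition complex (-0.22). Of 47 further mitosis genes tested, 40 were higher and 2 lower, with a median of 0.65, and 1 more was too low to test. *Melk*, a mitotic kinase (1.16), *Dlgap5*, a spindle protein (1.12), and *Cdca2*, which recruits a phosphatase to chromatin (1.07), led the list. *Mad2l1* of the spindle checkpoint (-0.37) and *Hjurp*, the chaperone of the centromeric histone (-0.24), fell.

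The drivers of G1 did not move together, with 5 of 9 higher and 3 lower and a median of 0.17. *Ccnd2*, a cyclin D, rose by 0.81, *Cdk2* by 0.64, and *Cdk6* was lower (-0.49). Of 14 brakes of the cell cycle tested, 6 were higher and 1 lower, with a median of 0.13, where 25.3% of all genes were higher and 25.6% lower. They were the antiproliferative genes *Btg2* (1.10) and *Btg1* (0.36), the pocket proteins *Rbl1* (0.63) and *Rb1* (0.38), the kinase inhibitors *Cdkn2c* (0.57) and *Cdkn1b* (0.19), and, lower, *Fzr1*, an activator of the anaphase-promoting complex in G1 (-0.16). *Cdkn2a*, another inhibitor, was too low to test, with 0 to 12 reads per library.

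Markers of the cells that could hold these transcripts differed between the regions as well, and their part in the difference was not tested. All 8 markers of radial glia and neural stem cells were higher in hippocampus, led by *Hopx* (1.87), and their sum was 733 to 1029 CPM there and 517 to 756 CPM in cortex. *Fabp7*, the marker of this list with the smallest change (0.20), gave most of this sum. All 5 markers tested of intermediate progenitors of the excitatory lineage were higher, with *Neurog2* at 4.62 and *Eomes* at 4.13. *Neurog2* had 0 to 11 reads in cortex libraries and 24 to 106 in hippocampus libraries, with the lowest hippocampus values in WT mouse 2 and Ube3aOE mouse 9. *Neurog1* was at 0 reads in most libraries and was not tested. The sum of this list was 64.0 to 135 CPM in hippocampus and 38.8 to 56.5 CPM in cortex. *Sstr2* and *Gadd45g* gave most of its reads in cortex, with 405 to 709 and 109 to 177 reads. *Eomes* had 86 reads in the cortex of WT mouse 3 and 1 to 15 in the other cortex libraries. All 6 markers of the dentate granule lineage were higher, with *C1ql2* at 4.27. Of 7 markers of immature neurons, 4 were higher (*Igfbpl1* 3.63) and *Dcx* was lower (-0.59).

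Markers of 3 kinds of glia were also higher in hippocampus in most cases, while of the 6 tested for myelinating oligodendrocytes 0 were higher and 0 lower. Of 7 markers each, 6 were higher for astrocytes (*Gfap* 1.31, summed 1381 to 2014 CPM in hippocampus and 948 to 1212 CPM in cortex), 6 for microglia (*Cx3cr1* 0.49, 146 to 233 CPM and 124 to 186 CPM) and 5 for oligodendrocyte precursors (*Sox10* 0.50, 354 to 599 CPM and 313 to 434 CPM), with 0 lower. Subpallial neuroblasts had 2 of 7 higher, *Sp9* (0.95) and *Gad2* (0.78), a share near that of all genes. Choroid plexus and ependyma had 6 of 7 higher, with a sum of 6.16 to 18.4 CPM in cortex, of 1984 CPM in the hippocampus of Ube3aOE mouse 7, of 372 CPM in that of mouse 9 and of 32.9 to 56.5 CPM in the other hippocampus libraries. Endothelium had 1 of 7 higher and 1 lower, both under the shares of all genes, mural and meningeal cells 0 higher and 1 lower, and red blood cell precursors 0 of 5. Hippocampal neuron markers were higher in 4 of 5 and lower in 1, and neocortical neuron markers lower in 3 of 5. Lists other than those of progenitors thus held genes higher in hippocampus too.

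The genotypes were compared within each tissue, which asks whether additional *Ube3a* changed these genes at P7. Of the 38 genes, 0 passed in hippocampus and 0 in cortex by edgeR, and 0 in either tissue by DESeq2. Of all genes, 0.00657% passed in hippocampus (1 of 15220) and 0.00669% in cortex (1 of 14947). At an unadjusted *P* value under 0.05, 2 of the 38 were found in hippocampus, where 7.21% of all genes were, and 3 in cortex, where 4.44% were. DESeq2 gave 1 and 3. The median log2 fold change of the 38 in Ube3aOE over WT mice was 0.015 in hippocampus and 0.075 in cortex, against 0.0023 and 0.0033 for all genes. In hippocampus 21 of the 38 values lay above 0, as did 50.7% of all genes. In cortex 29 of the 38 did, and 51.4% of all genes. The 95% interval lay within 0.5 of 0 on the log2 scale for 30 genes in hippocampus and 28 in cortex, so that for these a larger difference lies outside it, and for the others it was not resolved. The same coefficient of variation was 14.9% for the hippocampus libraries and 12.1% for those of cortex.

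The 3 genes with the smallest *P* values in hippocampus were *Mki67*, *Ttk* and *Bub1*. *Mki67* stood at 12.9, 11.3, 9.18, 11.3 and 12.8 CPM in WT and at 17.4, 13.4, 18.2, 12.5 and 14.1 CPM in Ube3aOE hippocampus. The genotypes overlapped, since Ube3aOE mouse 9 lay within the WT range, and the log2 fold change was 0.39 (SE 0.13, adjusted *P* = 0.668). *Ttk* stood at 2.99, 2.71, 3.08, 2.24 and 3.29 CPM in WT and at 3.52, 3.32, 4.43, 3.47 and 3.54 CPM in Ube3aOE hippocampus, with mouse 8 the highest. The groups were just apart, and the share of all genes for which this held was not counted. The log2 fold change of *Ttk* was 0.35 (SE 0.15, adjusted *P* = 0.668). *Bub1* stood at 3.87, 3.14, 3.82, 4.14 and 3.81 CPM in WT and at 4.23, 4.11, 5.85, 3.99 and 4.55 CPM in Ube3aOE hippocampus, where the ranges overlapped, and differed by 0.27 (SE 0.15, adjusted *P* = 0.681). *Top2a*, in the same libraries, differed by 0.095 (SE 0.11, adjusted *P* = 0.819).

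In cortex the 3 genes were *Kif15*, *Pcna* and *Anln*. *Kif15* stood at 1.85, 2.17, 2.14, 1.73 and 1.62 CPM in WT and at 3.37, 2.71, 2.80, 3.42 and 2.66 CPM in Ube3aOE cortex. Each Ube3aOE library was above each WT library, at 42 to 56 against 26 to 33 reads. The share of all genes for which this held was not counted. The log2 fold change of *Kif15* was 0.66 (SE 0.16, adjusted *P* = 0.960). Its interval, not adjusted for the choice of the gene by its *P* value, was 0.31 to 1.00. In hippocampus, *Kif15* differed by 0.089 (SE 0.14, adjusted *P* = 0.868). *Pcna* was lower, at 36.6, 42.0, 41.4, 41.7 and 40.1 CPM in WT and 34.8, 37.0, 36.0, 34.0 and 35.8 CPM in Ube3aOE cortex. WT mouse 1 lay within the Ube3aOE range, and the log2 fold change was -0.18 (SE 0.057, adjusted *P* = 0.960). *Anln* differed by 0.56 (SE 0.18, adjusted *P* = 0.960), with its 10 cortex values given above. Ube3aOE mouse 8 was by far the highest of them, and without this mouse the log2 fold change was 0.37. The cortex of mouse 8 also had the highest sum of the mural and meningeal markers, 399.8 CPM against 183 to 297 CPM in the other cortex libraries, and the lowest sum of the neocortical neuron markers, 306 CPM. The dentate granule marker sum was also highest there, at 121 CPM, and next in the cortex of Ube3aOE mouse 9, at 109 CPM. It was 55.1 to 92.8 CPM in the other cortex libraries. Mouse 9 also had the next highest *Anln* value in cortex. The part of the cells behind these sums in the *Anln* values was not tested.

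**Figure D5:**
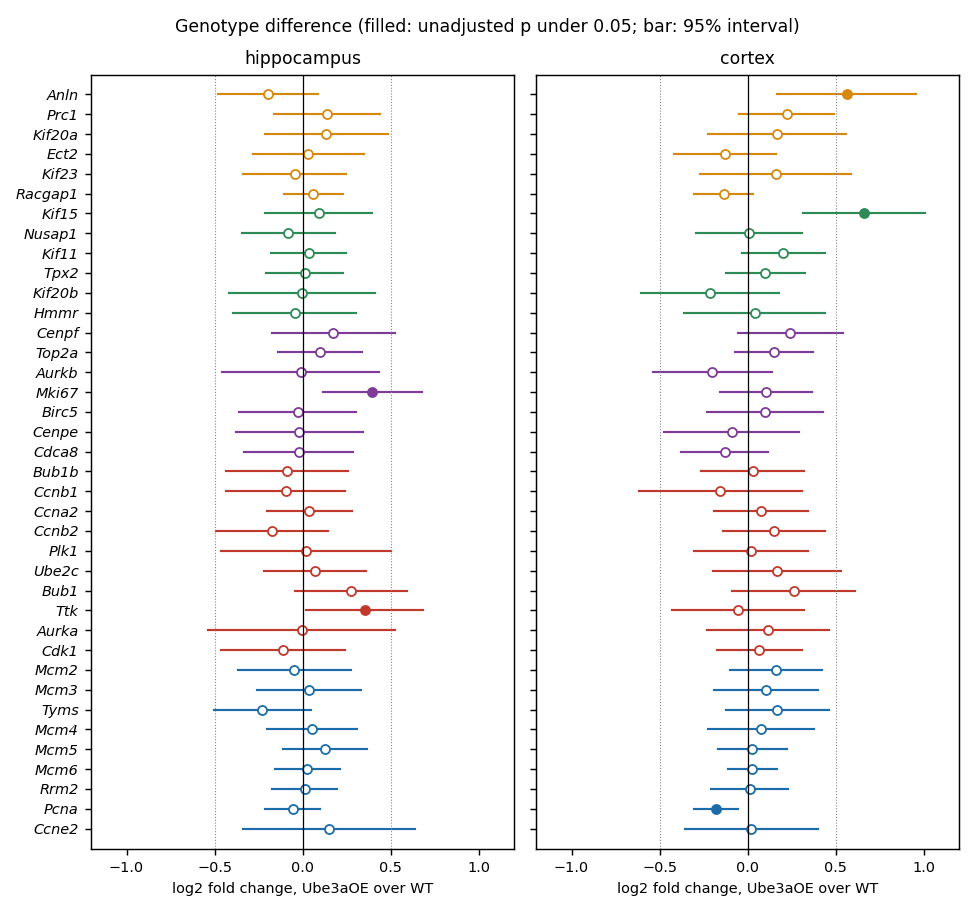
Log2 fold change of each of the 38 genes in Ube3aOE over WT mice (point) with its 95% confidence interval (bar) in hippocampus (left) and cortex (right), from edgeR over 10 libraries each. Filled points have an unadjusted *P* value under 0.05 (2 in hippocampus and 3 in cortex), no gene passed after adjustment, and dotted lines mark 0.5 on either side of 0.

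Whether the difference between regions itself differed by genotype was tested over all 20 libraries. It did so for 0 of the 38 genes after adjustment, by edgeR with or without the mouse as a block and by DESeq2, and for 0 of all 15661 genes by edgeR. Before adjustment, 3 of the 38 had a *P* value under 0.05, against 3.77% of all genes. They were *Anln*, *Kif15* and *Tyms*, each with a smaller difference between regions in Ube3aOE than in WT mice. The difference of differences was -0.75 (SE 0.23, adjusted *P* = 0.997) for *Anln*. It was -0.56 (SE 0.19, adjusted *P* = 0.997) for *Kif15* and -0.39 (SE 0.18, adjusted *P* = 0.997) for *Tyms*. In WT mice *Anln* differed between regions by 1.29 and in Ube3aOE mice by 0.54. For *Kif15* these values were 1.07 and 0.51, and for *Tyms* 0.76 and 0.36. With the mouse as a block, *Anln* and *Kif15* stayed under 0.05 before adjustment and *Tyms* did not (unadjusted *P* = 0.0570 by edgeR). Of the genes with the opposite order, *Ttk* had the largest difference, 0.38 in WT and 0.79 in Ube3aOE mice. *Mki67* had 0.44 in WT and 0.74 in Ube3aOE mice. Neither difference passed before adjustment (unadjusted *P* = 0.114 for *Mki67* by edgeR's quasi-likelihood test).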

How the data were processed

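RNA of the hippocampus and cortex of 5 WT and 5 Ube3aOE mice at P7 was sequenced from stranded mRNA libraries. Per the submitters' processing notes, tools included HISAT2 2.1.0 and HTSeq 0.11.2, with the build GRCm38 (mm10). The authors deposited whole-number read counts per gene for each library, not normalized, with 5 further lines for reads not on a gene, which were left out of totals and tests. The annotation release and the strand setting are not given in the sources used here. Of 47729 gene IDs, 47224 matched GENCODE release M21, which gave positions and exon lengths (all annotated exons of a gene joined).

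Groups came from the labels, and a number shared by both tissues was taken as 1 animal. Over genes, deviations of both libraries of an animal from their group means had a median correlation of 0.215, and 9 of 10 were above 0.1 (lowest -0.0367, mouse 4). Libraries of different animals were not compared in this way, so these correlations alone do not settle the pairing. Counts were filtered (filterByExpr), scaled (TMM) and fitted by edgeR 4.0.16 in R 4.3.3 (robust quasi-likelihood F test). Regions and the interaction were tested over 20 libraries with 4 group means, and genotypes over the 10 libraries of a tissue. Intervals are 95%. The fit was tested on simulated data. Alternatives were DESeq2 1.42.0, its size factors, no filter, the mouse as a block, all libraries together, each mouse left out, and, added after the values were seen, mice 2 and 9 or mice 3 and 5 left out. Counts of 14191093 to 16752326 per library leave the spread between mice as the main error for abundant genes.

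The 38 genes and the lists were chosen with earlier results of these data known. Genes are given with all values if they are among the 8 with the largest difference between regions, the 3 with the smallest, or the textbook markers *Mki67*, *Top2a*, *Cdk1*, *Ccnb1*, *Mcm2* and *Pcna*. For genotype the 3 with the smallest *P* value in a tissue are given, and from further lists the 3 with the largest called change, every called brake and up to 4 markers. Other genes named were chosen after their values were seen. Lists are described by counts and medians only. A marker of the neocortical list is not reported here and was left out of its sums and counts. Promoters are those of RefSeq.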

Additional observations from a re-analysis of the deposited data

Results flagged for a closer look

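Within a group of 5 libraries, 10 of 156 sets of values (each of the 38 genes and their sum in each of 4 groups) held a library whose gap to the nearest other was more than 0.71 of the whole range, where chance alone gives about 1 in 20, or 7.8. The hippocampus of WT mouse 2 accounted for 5 of them, all low: *Cenpf* at 5.78 CPM (8.55 to 8.97 CPM in the other WT hippocampus libraries), *Kif20b* at 1.91 CPM (2.77 to 3.12 CPM), *Mcm2* at 12.1 CPM (19.7 to 20.7 CPM), *Mcm5* at 13.7 CPM (18.3 to 20.2 CPM) and *Tyms* at 5.41 CPM (7.07 to 7.83 CPM). This is the library with the raised neocortical and lowered dentate marker sums given above.

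The other 5 lay in 5 different libraries. In the cortex of WT mouse 2, *Mcm4* was low at 8.15 CPM, against 12.0 to 13.9 CPM in the other WT cortex libraries. That library had the fewest reads on genes and the largest share not counted on a gene. *Tyms* was low in the cortex of WT mouse 5, at 3.30 CPM against 4.26 to 4.53 CPM. *Plk1* was low in the cortex of Ube3aOE mouse 10, at 2.72 CPM against 3.64 to 4.07 CPM. *Racgap1* was high in the cortex of Ube3aOE mouse 6, at 27.5 CPM against 22.4 to 23.1 CPM. *Ttk* was high in the hippocampus of Ube3aOE mouse 8, at 4.43 CPM against 3.32 to 3.54 CPM.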

How the results depend on the processing

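The count of 34 genes higher in hippocampus ranged from 33 to 35 when single mice were left out, 35 without mice 2 and 9, 32 without mice 3 and 5, and 34 under DESeq2, DESeq2's size factors, no filter on low counts and the mouse as a replicate block. With this block, in which each animal is compared with itself, no call of the 38 genes changed over both genotypes, while 1 was gained in WT mice (32 against 31) and 2 in Ube3aOE mice (34 against 32), as given above. The counts for genotype, for the interaction and for genes lower in hippocampus were 0 under each alternative run. Of single values, *Ccne2* ranged from -0.048 to 0.084 with single mice left out and changed sign, to -0.048 without WT mouse 3, to -0.0045 without Ube3aOE mouse 10 and to -0.039 without mice 3 and 5, and it passed in none of them. *Rrm2* lost its call without mouse 4 (0.17, adjusted *P* = 0.0620 by edgeR), without mouse 6 (0.18, adjusted *P* = 0.0578) and without mice 3 and 5 (0.18, adjusted *P* = 0.0671), with a range of 0.00405 to 0.0671 over all alternatives. *Cdca8* gained a call without mouse 2 and without mice 2 and 9, and *Aurka* lost its call without mice 3 and 5, with the values given above. The cause of these changes was not tested, beside the smaller number of mice. Genes with few reads, such as *Kif15* and *Kif20b*, are limited by counting error, and differences between genotypes inside the intervals given above were not resolved with 5 mice a group.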
